A study of Mus musculus with 12 samples.

Results

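Expression in 4T1 cells that overexpress full-length Mkl1 was compared with expression in the 4T1 control line. 4T1 is a mouse mammary epithelial carcinoma line, labelled here with the genetic background BALB/cfC3H. The comparison used the 3 arrays titled 4T1-FL and the 3 arrays titled 4T1-control, 6 of the 12 arrays of the series. Of 34760 probe sets, 30181 had a mean log2 value of at least 4 over these 6 arrays and were examined. They included 18253 genes, each represented by its probe set with the highest mean. FL is taken to stand for full-length Mkl1, and the labels do not describe what the control line carries. The other 6 arrays came from lines named mutB1 and ΔSAP for altered forms of Mkl1. All 4 lines were grown in triplicate in 0.03% serum for 48 h, so the control cells were serum-deprived as well. A single stable line stands for each construct. The effect of the construct and a difference between lines therefore cannot be told apart, and the p-values rest on the spread among cultures grown from the same line. The mouse gene for Mkl1 is now named Mrtfa, and that symbol is used for its probe set.

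Mkl1 is a coactivator of serum response factor (Srf). Globular actin holds it in the cytoplasm, and once actin polymerizes it enters the nucleus and, with Srf, switches on cytoskeletal and contractile genes through a DNA motif called the CArG box. It also carries a SAP domain, a putative DNA-binding motif, which the ΔSAP line is named for. Most of the 15 largest rises in the FL line belonged to another system, the interferon response. In that response, viral nucleic acid or interferon activates Stat and Irf transcription factors, which bind the interferon-stimulated response element (ISRE) in promoters of antiviral effector genes. Mammary carcinoma cells can run this programme without infection.

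The ISRE was searched in RefSeq promoters of assembly GRCm38.p6, because interferon-induced genes made up most of the largest rises. The search covered 250 bases before to 50 bases after the gene start, for the letters GAAANNGAAA on both strands. This motif was chosen after the values were seen. A promoter was on hand for 14306 of the 18253 genes. Of the raised genes with a promoter, 39 of 184 held an ISRE (21.2%), against 2 of 127 lowered genes (1.57%, Cd59a and Zcwpw1) and 531 of all 14306 genes (3.71%). Over all 32851 promoters of the table the share was 3.44%. The CArG box, which reads the same on both strands, was held by 2 of 184 raised genes (1.09%, Glipr2 and Tmc4) and by 2 of 127 lowered genes (1.57%, Rnd3 and Slc25a23). Its share was 1.64% of all genes with a promoter and 1.63% of the whole table. These shares are descriptions without a test, and a match is a stretch of letters, not a shown binding site. The promoters below are of 4 strongly raised interferon genes with an ISRE and of Dusp5, a phosphatase that turns off ERK and was raised under 2-fold, with CArG boxes. Only promoters with a match are shown. The promoter of Ifi44l, the gene with the largest rise, held no ISRE match. Capitals mark the motif. Each stretch ends at the base before the gene start. The strands are plus for Ifit3 (chr19:34583279-34583528) and Dusp5 (chr19:53528995-53529144) and minus for Rsad2 (chr12:26456453-26456602), Cxcl10 (chr5:92348890-92349139) and Oas3 (chr5:120777660-120777809).
Ifit3: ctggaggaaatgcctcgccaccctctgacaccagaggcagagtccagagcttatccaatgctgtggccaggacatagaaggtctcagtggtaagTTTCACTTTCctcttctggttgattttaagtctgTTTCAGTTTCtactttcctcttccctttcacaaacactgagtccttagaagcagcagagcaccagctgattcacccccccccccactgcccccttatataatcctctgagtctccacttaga
Rsad2: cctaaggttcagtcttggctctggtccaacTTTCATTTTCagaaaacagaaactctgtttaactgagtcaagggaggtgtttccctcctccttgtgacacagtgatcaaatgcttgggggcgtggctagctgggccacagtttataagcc
Cxcl10: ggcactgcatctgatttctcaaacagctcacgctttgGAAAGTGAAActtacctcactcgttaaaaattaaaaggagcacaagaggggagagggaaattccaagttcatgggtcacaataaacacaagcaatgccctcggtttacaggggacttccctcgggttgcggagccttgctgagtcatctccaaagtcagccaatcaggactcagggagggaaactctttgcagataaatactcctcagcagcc
Oas3: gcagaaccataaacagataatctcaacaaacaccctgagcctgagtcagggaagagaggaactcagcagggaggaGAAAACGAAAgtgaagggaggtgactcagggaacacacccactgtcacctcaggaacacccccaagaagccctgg
Dusp5: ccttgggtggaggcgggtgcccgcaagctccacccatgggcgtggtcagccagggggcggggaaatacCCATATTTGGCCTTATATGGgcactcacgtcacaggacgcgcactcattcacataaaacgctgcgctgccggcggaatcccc
Ifit3 held 2 ISRE matches and Dusp5 held 2 adjoining CArG boxes.

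The labelled cell type was checked against marker genes. None of the 7 epithelial markers was low, where low means under 6.35, the lowest median of an array. RMA values carry no detection call, so a low signal may be background. Of other cell types, 14 of 16 measured leukocyte markers and 10 of 12 endothelial markers were low on all 6 arrays, among them Ptprc and Pecam1. The log2 of the summed leukocyte markers ranged from 9.95 to 10.10 in control and from 10.33 to 10.36 in FL. Cd68, a lysosomal protein that macrophages share with other cells, was the leukocyte marker that rose (by 0.67). Markers were counted as raised or lowered at a limma adjusted p of at most 0.01 with no minimum fold. By that rule 13.7% of all genes rose and 16.3% fell. The summed fibroblast markers lay between 11.80 and 11.91 in control and between 11.44 and 11.57 in FL, with 3 of 15 raised, 3 lowered and 7 low. The summed myoepithelial markers lay between 9.37 and 9.40 in control and between 9.72 and 9.77 in FL, with 3 of 9 raised, 0 lowered and 5 low. The summed epithelial markers lay between 14.46 and 14.50 in control and between 14.31 and 14.35 in FL, with 3 of 7 raised and 2 lowered. The part of such cells in the results below was not tested. Array medians ranged from 6.35 to 6.46, and arrays of the same line correlated at 0.995 to 0.997, against 0.988 to 0.990 between FL and control arrays.

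Mrtfa was raised in the FL line. Its log2 values were 9.28, 9.28 and 9.26 on the control arrays and 12.06, 12.14 and 12.03 on the FL arrays. The groups stood far apart, with a change of 2.81 ± 0.056 (SE, limma adjusted p = 3.67e-10). Whether the probes see the introduced and the endogenous RNA alike was not tested. Srf read 10.003, 9.97 and 9.92 in control and 9.97, 10.01 and 9.97 in FL. The Srf values overlapped, and the change was 0.02 ± 0.053 (limma adjusted p = 0.871). Mrtfb, the close relative of Mkl1, changed by -0.14 ± 0.043 (limma adjusted p = 0.0311), short of the threshold of 0.01. Tenascin-C (Tnc), a matricellular glycoprotein of tumour stroma, rose from 5.83, 5.72 and 5.94 to 7.54, 7.81 and 7.93. Its rise was 1.94 ± 0.12 (limma adjusted p = 7.14e-07), from a control mean that was low.

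A probe set was called where the limma adjusted p was at most 0.01 and the fold at least 2. By this rule 421 probe sets were raised in FL (1.39% of those examined) and 216 were lowered (0.716%). They named 268 and 178 distinct genes. By the representative probe sets, 264 genes were raised (1.45%) and 175 lowered (0.959%). The rises reached further than the falls. At least 4-fold changes numbered 112 probe sets raised and 22 lowered, and at least 8-fold changes 41 raised and 2 lowered. These are probe sets, not genes: 284 of the 421 raised and 205 of the 216 lowered carried a single gene symbol. Of the raised genes 83 had a low control mean, so their folds may be understated, and 20 of the lowered genes had a low FL mean. For 22 called genes with further probe sets, 56 of 57 of those sets moved the same way, 48 passed the adjusted p, and 0 passed in the opposite direction. At the edge of the level rule, 275 probe sets had a mean within 0.05 below 4, and 242 a mean within 0.05 above it, of which 0 were called.

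**Figure D1:**
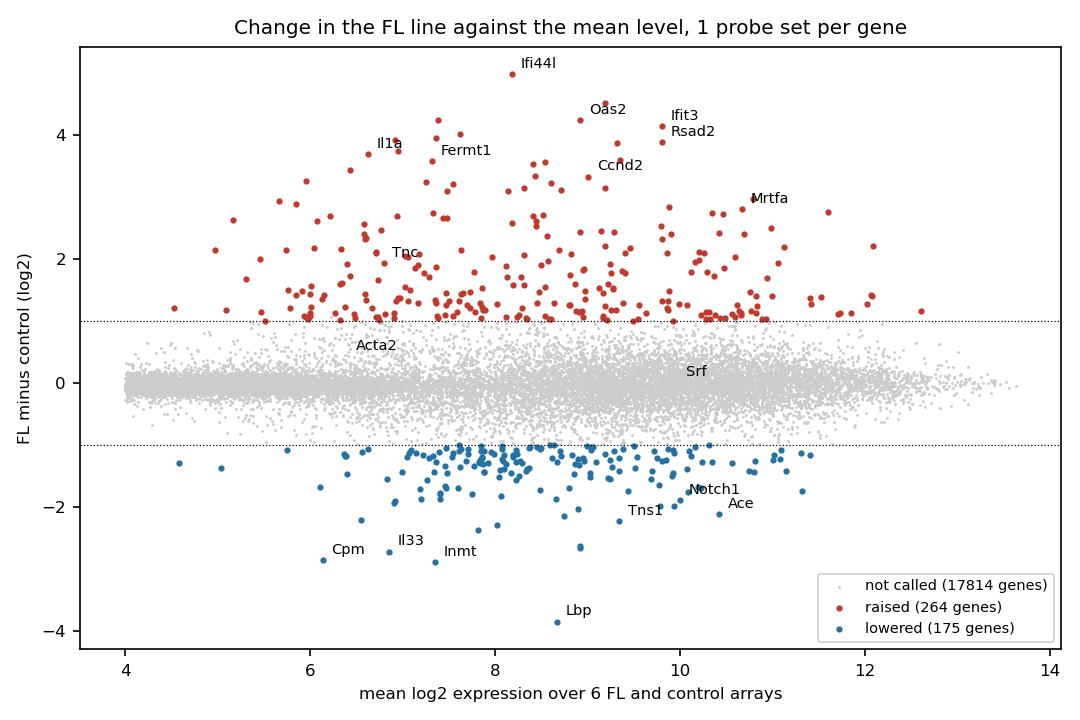
Change in log2 expression between FL and control (y axis) against the mean log2 value over the 6 arrays (x axis), 1 point per gene, with dotted lines at a 2-fold change. The 264 raised genes (red) reach 4.98 for Ifi44l and the 175 lowered genes (blue) reach -3.85 for Lbp, while Srf and Acta2 lie among the uncalled genes (grey).

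Most of the 15 largest rises were genes known to be induced by interferon. Ifi44l, an interferon-induced gene, stood at 5.96, 5.66 and 5.48 in control and at 10.65, 10.71 and 10.67 in FL, a 31.5-fold rise of 4.98 ± 0.12 (SE, limma adjusted p = 1.17e-09). Its control values were low. Oas2, which makes the messenger that activates RNase L, rose from 6.74, 6.95 and 6.72 to 11.07, 11.05 and 11.03 (18.9-fold). Ifit3, which binds viral RNA together with Ifit1, rose from 7.72, 7.90 and 7.61 to 11.86, 11.84 and 11.94 (17.6-fold). Rsad2, the antiviral enzyme viperin, rose from 7.996, 7.80 and 7.80 to 11.75, 11.76 and 11.76 (14.8-fold). In these 4 genes every FL array lay above every control array by over 8-fold. Also among the 15 were Ifit3b, the dynamin-like GTPases Mx2 (4.01) and Mx1 (3.92), Ifi205 (3.95), the nucleic acid sensor Zbp1 (3.87), the immunity-related GTPase Iigp1 (3.74), Oas3 (3.60) and Gm8995 (4.52). Ifit3 and Ifit3b are near-identical copies, and Ifi205 belongs to a family of close paralogs, so probes may be shared between copies. Acod1, which makes itaconate in activated macrophages, rose from 6.70, 6.81 and 6.75 to 10.33, 10.31 and 10.33 (11.9-fold).

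Il1a and Fermt1 completed the 15 largest rises. Il1a, the cytokine interleukin-1 alpha, rose from low values of 4.88, 4.79 and 4.68 to 8.44, 8.38 and 8.59 (12.9-fold). Fermt1, the integrin activator kindlin-1 of epithelial cells, rose from low values of 5.44, 5.57 and 5.58 to 9.10, 9.15 and 9.09 (by 3.58). The groups did not overlap for any of the 15, whose limma adjusted p ran from 1.04e-11 to 8.4e-08. These genes were picked as the largest changes among called genes, so separate groups follow from that choice. Of the 15, 8 had a low control mean.

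The 15 largest falls were of mixed function. Lbp, which carries bacterial lipopolysaccharide to its receptor, fell from 10.57, 10.65 and 10.57 to 6.76, 6.50 and 6.97, a 14.4-fold fall (-3.85 ± 0.12, SE, limma adjusted p = 8.31e-09). The methyltransferase Inmt fell 7.43-fold, from 8.88, 8.62 and 8.91 to low values of 5.92, 5.81 and 5.996. The membrane peptidase Cpm fell 7.24-fold, from 7.54, 7.58 and 7.58 to low values of 4.67, 4.69 and 4.77. FL arrays lay below all control arrays in these genes. Il33, an alarmin of epithelial cells, fell from 8.14, 8.23 and 8.29 to low values of 5.42, 5.46 and 5.61 (6.59-fold). Tns1, a tensin that ties integrins to actin, fell from 10.44, 10.44 and 10.51 to 8.24, 8.07 and 8.38 (4.69-fold). Ace, the angiotensin-converting enzyme, fell from 11.50, 11.45 and 11.51 to 9.28, 9.32 and 9.52 (4.33-fold). The remaining falls were Sned1 (-2.66), the glycosyltransferase Galnt15 (-2.64), Lrrc32 (-2.37), which tethers latent TGF-beta, Il17rd (-2.29), a feedback inhibitor of fibroblast growth factor signalling, the keratin Krt23 (-2.22), the Rac exchange factor Prex1 (-2.14), Xlr (-2.03), the metalloprotease Adamts9 (-1.98) and the matricellular Ccn5 (-1.98). The groups did not overlap for any of the 15, with limma adjusted p from 3.67e-10 to 1.63e-06, which again follows from how they were picked. Of the 15, 4 had a low FL mean.

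**Figure D2:**
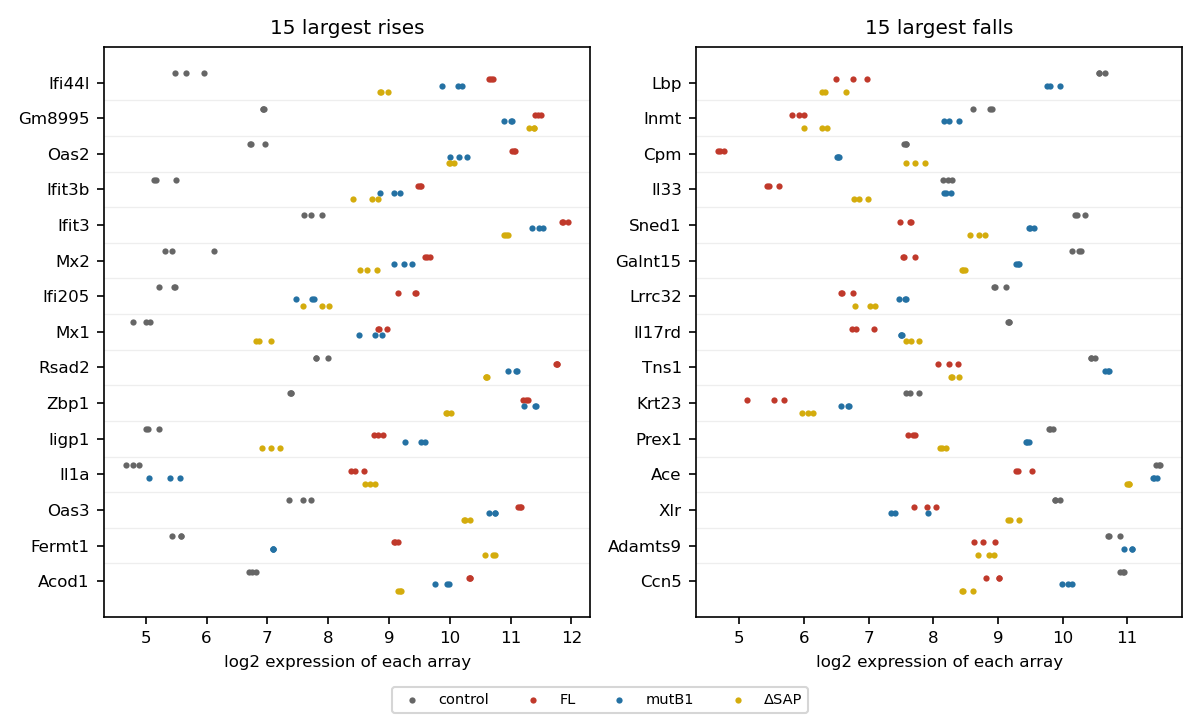
Log2 expression (x axis) of the genes with the 15 largest rises (left) and 15 largest falls (right) on all 12 arrays, 1 point per array, in control (grey), FL (red), mutB1 (blue) and ΔSAP (yellow). FL and control arrays stand apart in every gene, which follows from picking the largest changes. Cpm is low in FL alone among the 4 lines.

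Gene lists were read without a minimum fold: a member was counted as risen or fallen at a limma adjusted p of 0.01 or less, adjusted across the whole table. By that rule 2498 of 18253 genes rose (13.7%) and 2981 fell (16.3%), with a median change of -0.03, and the shares of a list are to be read against these. Many of these changes were small, and 69 list counts moved by more than 1.5 times under limma's treat, which tests for a change beyond 1.5-fold.

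The interferon response was the list with the highest median change. Of its 29 members 28 rose and 1 fell, with a median of 2.36, and 26 rose at least 2-fold. Besides the genes above, the list held the guanylate-binding protein Gbp3 (3.15). Of its transcription factors, Irf9, a DNA-binding factor of the interferon response, rose by 0.49, Stat2 by 1.40 and Irf7, which amplifies interferon induction, by 2.19 (named after their values were seen). The exception was Ifi27, which fell from 11.61, 11.63 and 11.57 to 10.41, 10.38 and 10.53 (-1.17 ± 0.047, SE, limma adjusted p = 4.03e-08). Genes that cut and load peptides for MHC class I rose as well, 12 of 12 members with a median of 0.54. The largest were the peptide transporter Tap1 (1.80) and the immunoproteasome subunits Psmb8 (1.20), Psmb9 (1.08) and Psmb10 (1.05).

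Sensors of nucleic acid and the interferons themselves were taken from 2 lists added after the values were seen. Of 21 sensors and adaptors 14 rose and 0 fell (median 0.64). They included Ifi205 and Zbp1, the RNA sensor Ifih1, which rose by 2.40, and Dhx58 (1.96). Ifih1, Dhx58 and Ddx58 are also members of the interferon response list, so the 2 lists overlap. The adaptors Mavs (0.06) and Myd88 (0.08) did not pass. Against the same control arrays, 16 of the 21 rose and 1 fell in mutB1, and 14 rose and 3 fell in ΔSAP. The list of interferon ligands and receptors also holds their kinases, Irf transcription factors and Socs inhibitors, and of its 24 members 4 rose and 3 fell (median -0.01). Interferon beta (Ifnb1) read 4.74, 4.85 and 4.98 in control and 4.86, 4.81 and 4.84 in FL, low on all 6 arrays and overlapping. The receptor kinases Jak2 (-0.86) and Tyk2 (-0.69) and the receptor chain Ifnar1 (-0.32) fell, whereas the transcription factors Irf5, Irf1 and Irf8 rose by 1.26, 0.45 and 0.30 and the receptor chain Ifnlr1 by 0.46.

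Inflammatory mediators also rose as a group. Of 35 NF-kB targets, chemokines and cytokines 23 rose and 6 fell (median 0.42). Cxcl10, which attracts T cells, stood at 9.79, 10.07 and 9.35 in control and at 12.25, 12.29 and 12.19 in FL. Ccl2, which attracts monocytes, stood at 10.11, 10.18 and 9.98 in control and at 12.04, 11.999 and 12.05 in FL. In both chemokines the FL arrays lay above all control arrays, by 2.51 ± 0.14 and 1.94 ± 0.049 (SE, limma adjusted p = 4.58e-07 and 1.81e-09). Cxcl2, which attracts neutrophils, rose by 1.68 from low control values, and its FL mean was low too. Against this trend ran Il33, Cx3cl1 (-0.56), Vcam1 (-0.44) and the NF-kB inhibitor Nfkbia (-0.29). In the complement and acute phase list, which also holds Nos2, 5 of 17 members rose, led by Nos2 (1.67), C1s1 (1.42) and Cfb (1.29). The 3 falls were Lbp, Cp (-0.62) and Lcn2 (-0.48). Much of this list was near background: 13 members had a low control mean, and 10 a low mean in both lines.

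**Figure D3:**
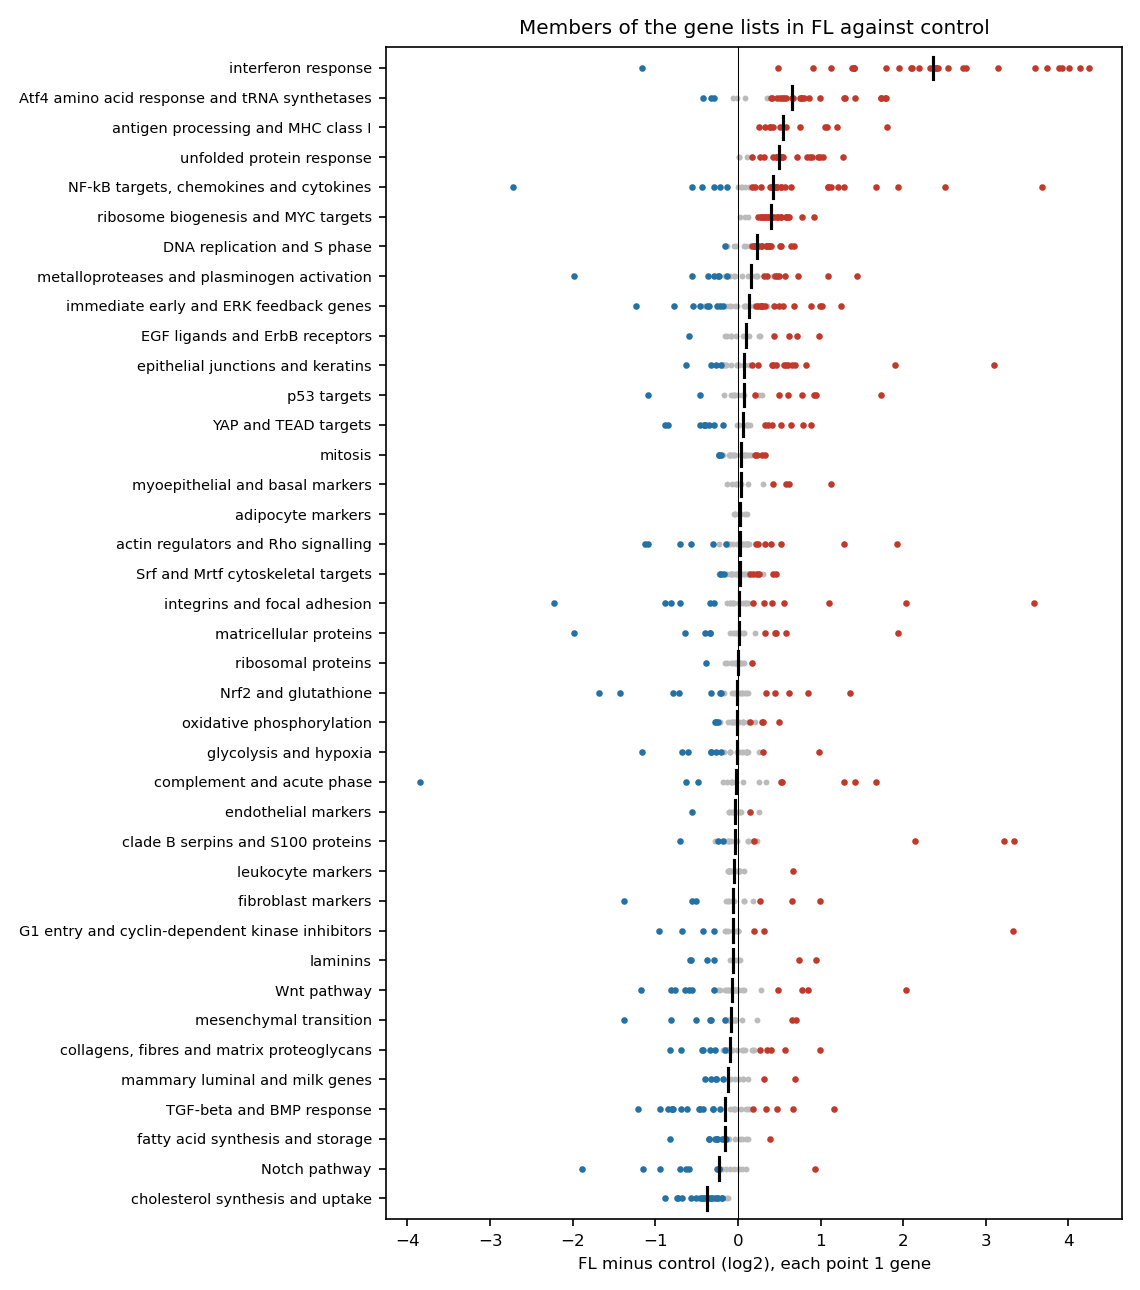
Change in log2 expression between FL and control (x axis) for each member of 39 gene lists (rows, ordered by median), 1 point per gene, red for members that rose, blue for members that fell and grey for those that did not pass, with a black bar at the list's median. The interferon response has the highest median (2.36) and cholesterol synthesis the lowest (-0.37).

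Genes of amino acid supply and of the stressed endoplasmic reticulum were higher in FL. Of 29 members of the Atf4 and tRNA synthetase list, which cells switch on when amino acids run short, 22 rose and 3 fell (median 0.65). Mthfd2, a mitochondrial folate enzyme, read 9.17, 9.32 and 9.17 in control and 11.05, 11.01 and 10.99 in FL. Ddit3, the stress transcription factor Chop, read 8.35, 8.33 and 8.40 in control and 10.15, 10.16 and 10.11 in FL. Both rose with no overlap, by 1.80 ± 0.045 and 1.78 ± 0.042 (SE, limma adjusted p = 1.64e-09 and 1.11e-09). Sesn2, a leucine sensor that restrains mTORC1, rose by 1.74 and Chac1, which degrades glutathione, by 1.73. The falls were Cbs (-0.43), Cebpb (-0.32) and Ddit4 (-0.29). Of 22 members of the unfolded protein response 18 rose and 0 fell (median 0.50). They were led by the chaperone cofactors Sdf2l1 (1.27), Dnajb11 (1.03), Hyou1 (0.99) and Creld2 (0.97). Xbp1, a main transcription factor of that response, changed by 0.01 and did not pass (named after its value was seen).

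Ribosome biogenesis genes and other MYC targets, a list that also holds Myc itself (0.44) and metabolic targets such as Odc1 (0.35, both named after their values were seen), were raised in 21 of 24 cases with 0 falls (median 0.40). Rrp9 (0.92) and Rrs1 (0.77), which serve processing of ribosomal RNA, led them. In contrast, of 18 ribosomal protein genes 1 rose (Rps27l, 0.17) and 1 fell (Rpl22, -0.39), and the rise did not pass without any 1 of the 6 arrays. Of 29 DNA replication genes 20 rose (median 0.23), among them the origin licensing factors Orc1 (0.67) and Cdc6 (0.52), the replication factor Mcm10 (0.65) and the cyclin Ccne1 (0.51). With arrays centred on their medians, 13 of them rose. E2f1 fell by 0.15 and passed in the fit of all 12 arrays but not with the 6 arrays alone, with the replicate block, or without any 1 array other than FL replicate 3. Of 26 mitosis genes 4 rose and 3 fell (median 0.04), and 1 rose with median centring.

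Cyclin D2 (Ccnd2), which drives entry into the cell cycle with Cdk4 and Cdk6, was the main change among 15 genes of G1 entry. It rose from 7.18, 7.40 and 7.47 to 10.70, 10.68 and 10.64, a rise without overlap (3.33 ± 0.087, SE, limma adjusted p = 2.4e-09). Ccnd3 (0.31) and Cdk2 (0.20) were the other rises. The falls were the retinoblastoma protein Rb1 (-0.95), its relative Rbl2 (-0.67), and the kinase inhibitors Cdkn2c (-0.42) and Cdkn1b (-0.28).

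Lipid synthesis genes were lower. Of 20 cholesterol synthesis and uptake genes 0 rose and 18 fell (median -0.37). The mevalonate pathway enzyme Pmvk stood at 10.31, 10.12 and 10.33 in control and at 9.40, 9.27 and 9.45 in FL. Its fall was the largest of the list (-0.88 ± 0.064, SE, limma adjusted p = 2.81e-06), and the groups did not overlap. Next came Hsd17b7 (-0.74), Mvd (-0.72) and Tm7sf2 (-0.68). Falls of 2-fold or more numbered 0. Of 18 fatty acid genes 10 fell and 1 rose (median -0.16), with Lpin1 at -0.83 and Acly, which makes cytosolic acetyl-CoA, at -0.35. In the fit of the 6 arrays alone 6 of them fell.

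Of the signalling pathways of cell fate, Notch and TGF-beta held more falls than rises. Of 19 Notch pathway genes 9 fell and 1 rose (median -0.23). The receptor Notch1 fell from 10.87, 10.89 and 11.08 to 8.99, 9.03 and 9.16 (-1.88 ± 0.069, SE, limma adjusted p = 2.06e-08). Its ligand Jag2 fell by 1.15, and the Notch target genes Nrarp and Hes1 fell by 0.94 and 0.70. Jag1, another ligand, rose from 9.70, 9.73 and 9.68 to 10.63, 10.62 and 10.64. Of 28 TGF-beta and BMP genes 14 fell and 5 rose (median -0.16). The BMP targets Id4 (-1.20) and Id2 (-0.95) and the ligands Tgfb2 (-0.85) and Bmp7 (-0.80) fell, while Pmepa1 (1.17), a TGF-beta target, Id3 (0.66) and Inhba (0.48) rose. Of 33 Wnt genes 7 fell (21.2%), 4 rose (12.1%) and 22 did not pass, shares near those of all genes, with the secreted inhibitor Sfrp1 at -1.17 and the ligand Wnt7a at 2.03, from a low control mean.

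The known cytoskeletal targets of Srf and Mkl1 changed little. Of 38 such genes 6 rose and 3 fell, shares of 15.8% and 7.89% against 13.7% and 16.3% of all genes, with a median of 0.03 and 0 changes of 2-fold. Smooth muscle actin (Acta2) read 6.22, 6.23 and 6.14 in control and 6.63, 6.61 and 6.64 in FL. Its rise of 0.43 ± 0.058 (SE, limma adjusted p = 0.000248) started from a low level. Filip1l rose by 0.46, but a second probe set of Filip1l changed by -0.06. The other rises were Pdlim7 (0.26), Tagln2 (0.23), Tpm4 (0.19) and Wdr1 (0.14), and the falls were Pdlim5 (-0.22), Cald1 (-0.20) and Cnn3 (-0.17). The count of rises fell to 3 without FL replicate 2, without FL replicate 3, or with the replicate number as a block, and the count of falls to 1 without FL replicate 2. Of 37 immediate early and ERK feedback genes 15 rose and 9 fell (median 0.13). Atf3 (1.25), Csrnp1 (1.02), Egr1 (0.99) and Dusp5 (0.88) led the rises, whereas Spry1 (-1.23), an inhibitor of receptor tyrosine kinases, and Egr2 (-0.77) led the falls. Dusp5 read 8.45, 8.44 and 8.37 in control and 9.32, 9.40 and 9.17 in FL, with no overlap. Of 22 targets of the mechanosensitive YAP and TEAD factors 7 rose and 9 fell, with Wwc1 at 0.88 and Nuak2 at -0.88. The matricellular Ccn1 and Ccn2, both also known as YAP targets, moved in opposite directions (0.32 and -0.40).

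Adhesion and matrix genes changed in both directions. Among 26 integrin and focal adhesion genes Fermt1, Itgb7 (2.03) and Itga2 (1.10) rose and Tns1, Itga1 (-0.89) and Itgb3 (-0.82) fell, 7 rises and 6 falls in all. The epithelial list of 32 junction and keratin genes held 13 rises and 4 falls (median 0.08). Dsg2, a cadherin of desmosomes, rose from low values of 5.88, 5.86 and 6.05 to 8.98, 8.97 and 9.13 (3.10 ± 0.074, SE, limma adjusted p = 1.26e-09). The tight junction gene Cldn9 (1.90) and the desmosomal gene Pkp2 (0.82) rose as well, and plakoglobin (Jup) fell by 0.62. Lamb3 (0.94) and Lama3 (0.73), chains of the epithelial laminin-332, rose, while Lamb2 (-0.59), Lama5 (-0.57), Lamb1 (-0.37) and Lamc1 (-0.29) fell. Of 20 mesenchymal transition genes 2 rose and 6 fell, with Zeb1 at 0.71 and the PDGF receptor Pdgfra at -1.38. The rises there numbered 1 without FL replicate 1, FL replicate 2 or control replicate 3. Of 26 proteases and inhibitors of the matrix 9 rose, led by Mmp13 (1.44) and Mmp10 (1.09), and 7 fell, led by Adamts9. The count of falls there went down to 2 without FL replicate 1 or without FL replicate 2, to 3 without any of the control replicates or in the fit of 6 arrays, and to 4 with the replicate block. Of 30 collagens and related matrix genes 5 rose and 7 fell, with Fbln1 at 0.99 and Col6a1 at -0.83.

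Oxidative stress, hypoxia and p53 genes changed in both directions. Among 24 Nrf2 and glutathione genes Hmox1, which degrades haem, rose by 1.35 and Gclm by 0.85, whereas the glutathione transferase Gstm1 (-1.68) and the epoxide hydrolase Ephx1 (-1.43) fell, 5 rises and 7 falls in all. The falls numbered 4 in the fit of 6 arrays. Among 23 glycolysis and hypoxia genes 7 fell, led by Aldoc (-1.16), and 2 rose, Adm (0.98) and Pfkfb3 (0.30). Without FL replicate 3, control replicate 1 or control replicate 3 the rises numbered 1. Among 19 p53 targets 7 rose, led by Sesn2, Aen (0.94) and Plk3 (0.93), and Sesn1 (-1.09) and Trp53inp1 (-0.46) fell. Among 33 actin regulators the Cdc42 effector Cdc42ep5 rose by 1.93, while Cdc42ep3 (-1.12) and Rnd3 (-1.08) fell, with 7 rises and 6 falls. The rises numbered 4 with median centring and without FL replicate 3, control replicate 2 or control replicate 3. Of 19 clade B serpins and S100 proteins 4 rose (21.1%) and 3 fell (15.8%), with a median of -0.04. The rises were Serpinb6b (3.34), Serpinb9b (3.22), Serpinb9 (2.14) and Serpinb6a (0.20), close paralogs that may share probes, and the falls were S100a1 (-0.70), S100a16 (-0.24) and S100a6 (-0.18).

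The other construct lines showed which of these changes also set FL apart from altered forms of Mkl1. The comparisons with mutB1 and ΔSAP use the same FL arrays, so they are given side by side and are not independent of the values above. The median level of the interferon members was 9.10 in control and 11.19 in FL, and 11.12 and 10.87 in the mutB1 and ΔSAP lines. Against the same control arrays, 28 members rose and 1 fell in mutB1, where 9.04% of all genes rose and 11.4% fell, and 28 rose and 1 fell in ΔSAP, where 10.2% rose and 12.7% fell. FL exceeded mutB1 in 11 of the 29 and lay below it in 2, against 13.2% and 13.9% of all genes, and it exceeded ΔSAP in 21 and lay below it in 1, against 9.12% and 9.09%. Mx1, for example, had means of 8.72 in mutB1 and 6.91 in ΔSAP, and FL was 1.97 above ΔSAP (limma adjusted p = 2.34e-06) and 0.16 above mutB1 (limma adjusted p = 0.369).

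In the stress and lipid lists FL differed from both altered forms, which had part of the stress list rises over control as well. For the unfolded protein response, FL was higher than mutB1 in 19 of 22 genes and higher than ΔSAP in 18, and lower in 0. Against control, 6 of these genes rose and 3 fell in mutB1, and 11 rose and 3 fell in ΔSAP. For the Atf4 list, FL was higher in 19 of 29 in each comparison and lower in 2 against mutB1 and 1 against ΔSAP. Against control, 17 of the Atf4 list rose and 2 fell in mutB1, and 16 rose and 2 fell in ΔSAP. The median changes were 0.24 in mutB1 and 0.30 in ΔSAP against 0.65 in FL, so FL differed there in degree. For ribosome biogenesis and MYC targets, FL was higher than mutB1 in 22 of 24 and than ΔSAP in 14, and lower in 0. Against control, 3 of them rose and 1 fell in mutB1, and 12 rose and 0 fell in ΔSAP. For cholesterol synthesis, FL was lower than mutB1 in 20 of 20 and than ΔSAP in 19. In that list mutB1 and ΔSAP themselves stood above control, with 11 and 9 members raised and 0 lowered. DNA replication genes did not separate FL in the same way: FL was lower than mutB1 in 8 of 29 and higher in 0, and higher than ΔSAP in 2. Of the 32 epithelial junction and keratin genes, FL stood above mutB1 in 21 and below it in 3, and above ΔSAP in 0 and below it in 18.

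**Figure D4:**
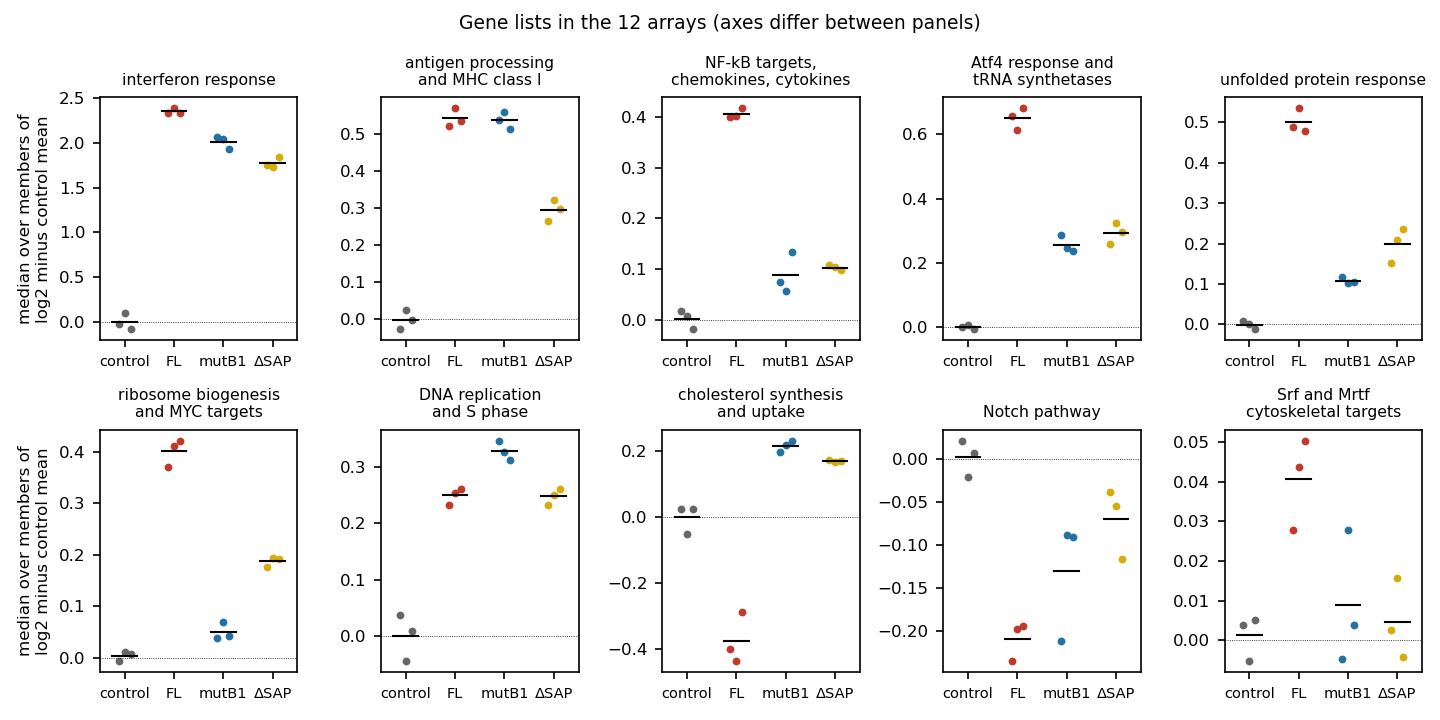
Median over the members of 10 gene lists of the log2 value minus the gene's control mean (y axis, scales differ between panels) on each of the 12 arrays, grouped by line, with a bar at the mean of 3 arrays. The interferon list lies between 1.73 and 2.38 on all 9 construct arrays, whereas the cholesterol list lies between -0.44 and -0.29 on the FL arrays and between -0.05 and 0.02 on the control arrays, and the Srf and Mrtf list stays within 0.051 of 0 throughout.

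Called against all 3 other lines in the same direction were 21 rises and 16 falls. Over all genes, FL was called above mutB1 in 1.39% and below it in 0.975%, and above ΔSAP in 0.29% and below it in 0.46%. The 6 largest rises were Ifi205, Serpinb6b, Ccnd2, Trim30d (3.26), Serpinb9b and Epsti1 (2.66). Ccnd2 averaged 7.31 in mutB1 and 9.07 in ΔSAP, so FL was higher by 3.37 and 1.61 (limma adjusted p = 2.44e-09 and 1.87e-06). Also in this group, named after their values were seen, were the MHC class II chaperone Cd74 (1.78) and the immune receptor Havcr2 (2.66). The 6 largest falls were Cpm, Il33, Sned1, Ace, the microtubule minus-end protein Camsap3 (-1.82) and Ddah2 (-1.75). Cpm averaged 6.52 in mutB1 and 7.72 in ΔSAP against a low 4.71 in FL. Il33 averaged 8.22 in mutB1 and 6.87 in ΔSAP against a low 5.50 in FL. Fermt1 differed from these, with FL 2.02 above mutB1 but below ΔSAP (-1.57, limma adjusted p = 8.97e-08).

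A comparison that shares no array with FL and control is ΔSAP against mutB1. Its calls still rest on the same estimate of each gene's spread, taken from all 12 arrays, and so are not independent. Among the 264 genes raised in FL, ΔSAP was higher than mutB1 in 105 (39.8%) and lower in 79 (29.9%). Among all 18253 genes the shares were 10.9% and 12.5%. Among the 175 genes lowered in FL, ΔSAP was higher in 25 (14.3%) and lower in 105 (60.0%), with a median of -0.45. Lbp showed this pattern, with means of 9.84 in mutB1 and 6.42 in ΔSAP against 10.60 in control and 6.75 in FL.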

How the data were processed

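The deposited values are log2 expression per probe set on Affymetrix Mouse Gene 1.0 ST arrays. The authors made them with RMA in the affy package of Bioconductor 2.4, per the series design text. R 2.10.0 and affy are the tools listed in the submitters' processing notes. RMA equalises the distributions of the arrays, so a shift common to most genes cannot be seen. No source used here gives array batches or a genome build. From these values, limma 3.58.1 in R 4.3.3 was fitted to all 12 arrays with 4 line means, and the contrast FL minus control was taken, with Benjamini-Hochberg adjustment over 34760 probe sets. The test and thresholds follow the series design text, which states them for FL against mutB1 and ΔSAP. Changes carry standard errors (SE). The precision is limited by 3 arrays per line.

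A single gene symbol was given for 21640 probe sets, several for 1321 and none for 11799. Symbols were updated through Entrez identifiers with RefSeq GRCm38.p6, which matched 21553 and left 87. Named were Mrtfa, Mrtfb, Srf and Tnc, the 15 largest rises and falls, up to 4 members each way per list, and the 6 largest changes each way shared against mutB1 and ΔSAP. The members and the 39 lists were chosen with earlier results of these data known, and 2 lists were added after the values were seen. The fit was tested on simulated data before use. Deviations of same-numbered FL and control arrays correlated at 0.0077, -0.038 and 0.010, so the replicate numbers were not taken to pair them. Alternatives were the 6 arrays alone, a replicate block, other scalings, tests, levels and thresholds, and leaving out each array.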

Additional observations from a re-analysis of the deposited data

Results flagged for a closer look

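Named genes are given here that changed against control in FL and in another construct line in opposite directions, both past the limma adjusted p of 0.01, and whose difference between the lines also passed. Both changes are taken from the same control arrays, and the values in parentheses are FL minus mutB1 on the log2 scale. There were 30 such genes for mutB1. Most named genes were picked because they passed in FL against control, and the share of all genes meeting this rule was not computed. The count therefore does not show whether such genes are common or rare. Raised in FL and lowered in mutB1 were the junction genes Cldn9 (2.81) and Pkp2 (2.23), the basal keratin Krt17 (1.42), the luminal transcription factor Foxa1 (1.11) and the receptor Erbb3 (1.28). The tight junction gene Cldn9 was 1.90 above control in FL and changed by -0.91 in mutB1. Raised in FL and lowered in mutB1 were also Dusp5 (1.19), Adm (1.80), Plk2 (1.39), Arhgap29 (1.88), Wnt10a (1.21) and Jag1 (1.39). Dusp5, shown above with its CArG boxes, is among them, as is the Notch ligand Jag1. Egr2, which also had a promoter with a CArG box, changed the other way (-0.77 in FL and 0.50 in mutB1).

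Lowered in FL and raised in mutB1 were the cholesterol synthesis enzymes Hsd17b7 (-1.03), Mvd (-1.09) and Tm7sf2 (-1.14). So were the cell cycle genes Mki67 (-0.39), E2f1 (-0.33) and Cdkn2c (-0.61), and the Notch targets Nrarp (-1.38) and Hes1 (-1.27). Also in this direction, from several lists, were Pdgfrb (-3.96), Itgb3 (-1.12), Sparc (-0.55), Ccn2 (-0.62), Rbms3 (-1.10), Cald1 (-0.53) and Pi16 (-1.39). The largest difference was that of the PDGF receptor Pdgfrb, which changed by -0.51 in FL and rose by 3.45 in mutB1. The remaining genes were Egr2 (-1.27), Mmp19 (-1.16), Lcn2 (-0.65) and Plvap (-1.31). For ΔSAP, Rbms3 was the case found, with FL minus ΔSAP at -0.63, a change of -0.41 in FL and a rise of 0.22 in ΔSAP. Groups of 3 arrays were too small for a search for outlying arrays.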

How the results depend on the processing

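With a minimum fold of 1.5 in place of 2, 1022 probe sets were raised and 830 lowered, against 421 and 216, since smaller changes are then counted. The other alternatives kept both counts within 1.5 times. Leaving out 1 array at a time gave 386 to 514 raised and 209 to 240 lowered, with the highest count of rises without control replicate 2. The replicate numbers did not pair the arrays, and with the replicate block 413 probe sets were raised and 215 lowered. Median centring gave 381 and 253. Among counts of list members, 1242 of 1394 alternatives stayed within 1.5 times and 152 moved, 69 of them under limma's treat, which asks for a change beyond 1.5-fold. Under treat the interferon list kept 27 rises, the Atf4 list 8, the unfolded protein response 6, ribosome biogenesis and MYC targets 1 and DNA replication 0, and cholesterol synthesis kept 0 falls. The share of raised promoters with an ISRE was 11.6% with the fold of 1.5, an alternative added after the values were seen, and the shares with a CArG box were 2.4% of raised and 2.01% of lowered genes. Filip1l changed sign at its other probe set, at -0.0614; the cause was not tested. Of the named genes' alternatives at their own probe set, 3860 kept their call, 303 lost the call and 2 gained it, both for Mrtfb. Among named genes that passed in the main fit, 0 of these alternatives changed sign. Sign was not followed for the named genes that did not pass. Low signal limits folds that start or end under 6.35.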
